A study of Mus musculus with 6 samples.

Results

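Interferon-stimulated genes were measured in whole lung of 6 wild type mice. The control diet group had 3 mice and the high fat group 3, each lung on its own Affymetrix array. The labels number the lung samples separately but do not state that each came from its own animal; they are called mice here. The set holds 32 symbols induced by type I or type II interferon. Its members are the probe sets (groups of short probes that report 1 transcript) whose platform annotation names only 1 of these symbols. They numbered 40 of 45101 probe sets and represented 30 of the 18194 genes named there, 22 of them by 1 probe set, 6 by 2 and 2 by 3. Ifi44 had no such probe set, and Isg15 appeared only on a probe set that names a further gene. The sources used here do not state the strain, age or sex of the animals, nor how long the diets lasted or what they contained.

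Type I interferons act through a receptor found on nearly all cells and activate a complex that holds STAT2 and IRF9 and binds the interferon-stimulated response element (ISRE) in promoters of antiviral genes. Interferon-gamma, made mainly by T and NK cells, uses another receptor, acts through the gamma-activated site (GAS) in promoters, and induces guanylate-binding proteins, immunity-related GTPases and chemokines that attract T cells. In lung these genes are known for restraining respiratory viruses, and many are expressed at a low level without infection.

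Promoter windows of 300 bases, from 250 before to 50 after a transcript start, were taken from RefSeq on build GRCm38.p6, and 25 of the 32 member symbols matched. Ifi27l2a was not among them, so its promoter is neither counted nor shown. The ISRE core, which is GAAA, any 2 bases and GAAA again, searched on both strands, was present in 14 of these 25 genes (56 percent) against 3.99 percent of all 27025 genes with a window. The GAS motif TTCNNNGAA, which is its own reverse complement, was present in 7 of 25 (28 percent) against 9.55 percent of all genes. The 170 bases before the start are shown for 4 members, because Ifit1 and 1 probe set of Gbp2 were higher in high fat mice while Ifit3, a neighbour of Ifit1 that carries the same 2 ISRE letter strings, and Bst2 had lower mean signals. All are written 5′ to 3′ along the gene, with ISRE core matches in capitals.
Ifit1, chr19:34640719-34640888, plus strand: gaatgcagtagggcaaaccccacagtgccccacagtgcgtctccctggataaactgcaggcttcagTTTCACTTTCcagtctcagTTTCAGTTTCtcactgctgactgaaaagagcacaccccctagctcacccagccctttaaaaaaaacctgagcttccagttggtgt
Ifit3, chr19:34583359-34583528, plus strand: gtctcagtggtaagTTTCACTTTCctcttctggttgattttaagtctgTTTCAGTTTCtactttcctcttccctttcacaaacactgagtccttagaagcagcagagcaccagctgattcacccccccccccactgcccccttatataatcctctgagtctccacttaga
Gbp2, chr3:142620493-142620662, plus strand: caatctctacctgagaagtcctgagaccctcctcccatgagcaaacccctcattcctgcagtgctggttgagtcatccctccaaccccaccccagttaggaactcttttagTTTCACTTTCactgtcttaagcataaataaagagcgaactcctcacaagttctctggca
Bst2, chr8:71537473-71537642, minus strand: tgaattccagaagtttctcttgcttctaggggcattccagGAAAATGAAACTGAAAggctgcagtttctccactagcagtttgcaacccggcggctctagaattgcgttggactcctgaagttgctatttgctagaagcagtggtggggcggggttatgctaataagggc
The matches of Ifit1 began 104 and 85 bases before the start, those of Ifit3 156 and 122, that of Gbp2 59, and those of Bst2 130 and 124, where they overlap each other and a GAS match that began at 136. A match is a string of letters, not a measured binding site.

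Signals were MAS5 intensities on a linear scale, every array had a trimmed mean of 500, and their precision is limited by 3 arrays per group. Array medians ran from 143.3 to 150.3 in the control group and from 113.4 to 128.7 in the high fat group. As a sign of RNA quality, the signal at the 3' end of Gapdh divided by that at its 5' end averaged 0.768 ± 0.0259 on control and 0.915 ± 0.0538 on high fat arrays, and for beta-actin 1.31 ± 0.122 against 1.52 ± 0.0219 (SD, n = 3 each; two-sided exact permutation p = 0.1 for each, the smallest that 3 against 3 allows). In whole lung, fewer cells of a type and less RNA per cell cannot be told apart. Of the tested markers of other cell types, called higher and called lower in high fat mice were 6 and 0 of 7 for adipocytes, 3 and 2 of 13 for macrophages, 0 and 2 of 6 for monocytes and neutrophils, 0 and 3 of 11 for T and NK cells, 0 and 3 of 8 for B lineage cells, 0 and 2 of 10 for endothelium, 0 and 1 of 8 for dendritic cells and 0 and 0 of 7 for plasmacytoid dendritic cells. They were 0 and 0 of 9 for alveolar and of 5 for airway epithelium, 1 and 0 of 8 for fibroblasts and 1 and 0 of 8 for muscle. Among all tested genes, 4.56 percent were called higher and 2.2 percent lower, by the rule given below.

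Among the interferon-stimulated genes, Ifi27l2a stood far above the others, Ifit1 was moderately higher, and 28 of 30 genes did not pass the test. A gene was called at an adjusted p under 0.05 in limma, a linear model with shared variance estimates fitted over all 12689 tested genes, with the brightest probe set standing for a gene. By this rule 2 member genes rose and 0 fell, against a background of 4.56 percent of all tested genes called higher, 2.2 percent called lower and 6.75 percent called either way. The share of members called, 2 of 30, is thus near that of the array as a whole. Over probe sets, 38 of the 40 passed a filter on dim signals, of which 3 were called higher (background 4.63 percent) and 0 lower (background 8.27 percent; 12.9 percent either way), and 11 had an unadjusted limma p under 0.05 (background 31.1 percent). The median log2 difference, high fat minus control, was 0.16 over the 30 member genes and 0.06 over all tested genes. Signals of 7 member genes lay higher in every high fat mouse than in any control mouse (background 19.7 percent) and 3 lay lower (background 12.1 percent, and 31.8 percent either way). Over member probe sets these numbers were 8 (background 14.6 percent) and 4 (background 21.7 percent). The 95% interval of the difference lay within 2-fold in both directions for 22 of the 30 genes. It reached a 2-fold rise for 8 and a 2-fold fall for 1, which was Xaf1. Centring the arrays on their medians moved the median of all tested genes from 0.06 to 0.33 and the share of called genes that were higher from 67.4 to 95.4 percent, and it raised the number of member genes called higher from 2 to 6. The added genes were Irf1, Irf7, Usp18 and Cxcl9. With limma's variance not fitted against signal level, Ifi27l2a alone kept its call over genes among the members and the pathway genes called below.

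**Figure D1:**
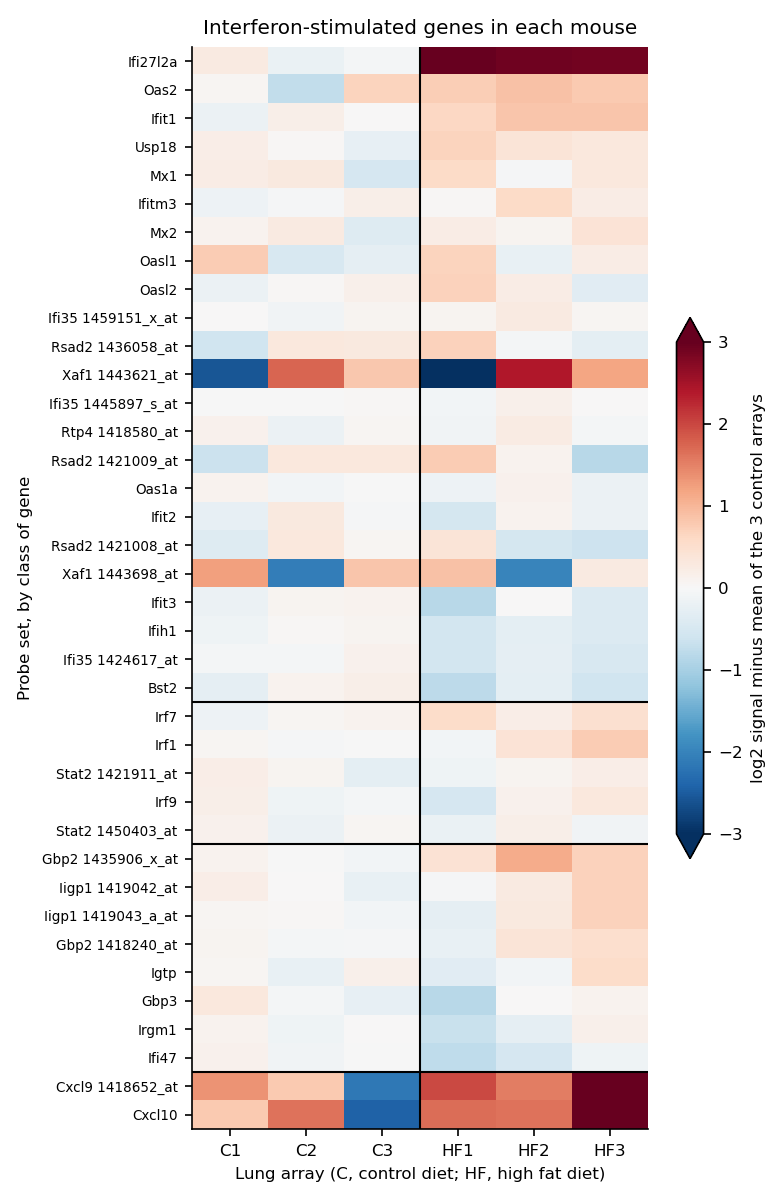
Heat map of the 38 tested probe sets (rows, by class of gene) on the 6 arrays (columns, C for control diet and HF for high fat diet), coloured by log2 signal minus the mean of the 3 control arrays. Ifi27l2a is uniformly high in the 3 high fat mice, both Xaf1 probe sets vary strongly within each group, and most other rows are pale.

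**Figure D2:**
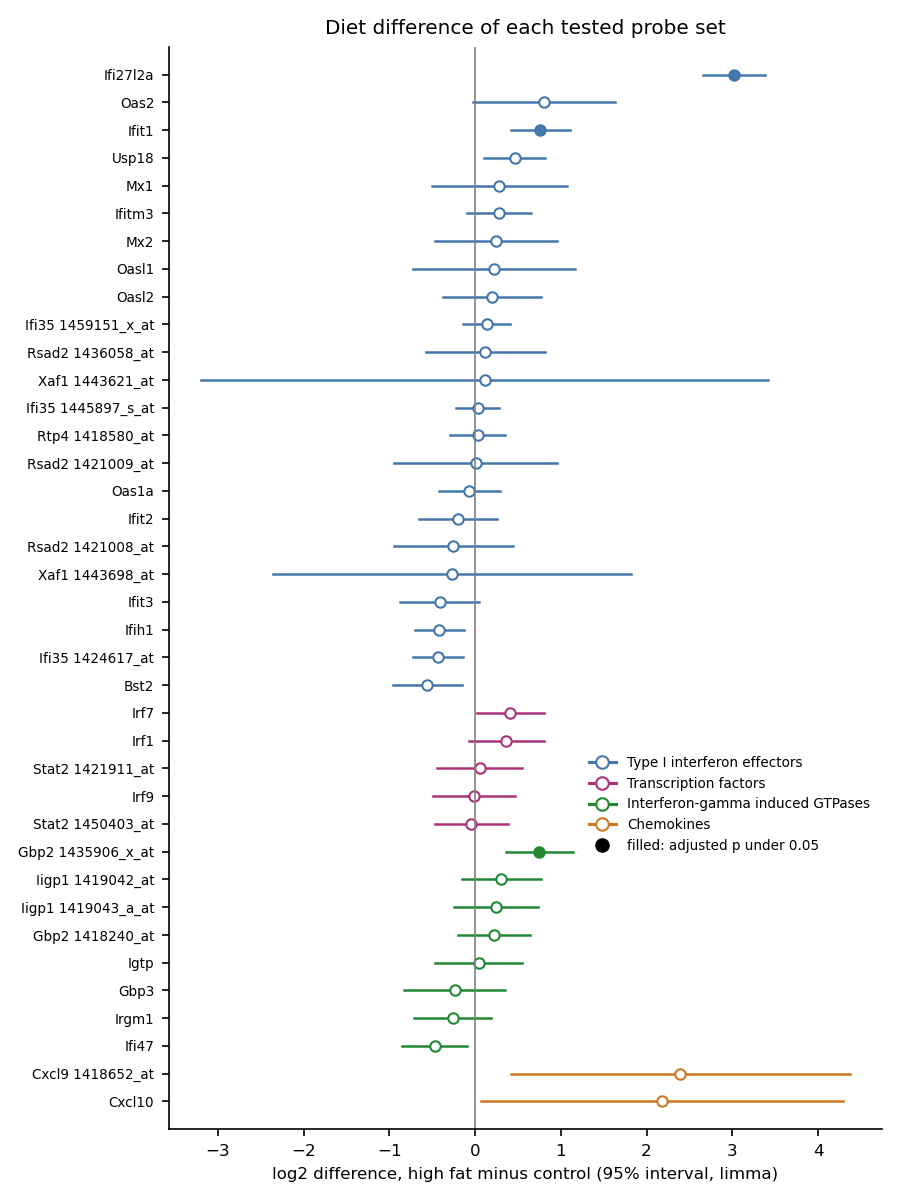
Log2 difference, high fat minus control, of each tested probe set (point) with its 95% interval from limma (line), coloured by class. The 3 filled points, Ifi27l2a, Ifit1 and the Gbp2 probe set with the suffix x_at, had an adjusted p under 0.05 over all tested probe sets.

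Ifi27l2a encodes a small hydrophobic interferon-inducible protein of the ISG12 family. Its signals were 723.5, 520.2 and 571.9 in the control mice and 5726, 4529 and 4467 in the high fat mice. The groups were widely separated, and the lowest high fat signal was far above the highest control signal. The rise was 8.13-fold, with a 95% interval of 6.34 to 10.4 (limma adjusted p = 0.000214). It had the smallest p of all 12689 tested genes and was 7 in the order of log2 rises. With 1 mouse left out, the log2 difference ran from 2.91 to 3.16, and the gene was called in 6 of 6 such fits. Its measured relatives, Ifi27 and Ifi27l2b, were not called, and Ifi27l1 had no probe set that names it alone. Ifi27, the founding member of the family, had means of 3614 ± 181 and 3763 ± 610.1 (SD, n = 3 each), a difference of 1.03-fold with an interval of 0.838 to 1.28 (limma adjusted p = 0.856). Ifi27l2b, measured close to the dim filter, had signals of 96.26, 161.2 and 117.3 in control and 75.44, 62.61 and 93.77 in high fat mice, and was not called (limma adjusted p = 0.228). Its high fat signals all lay below its control signals, by a narrow gap and opposite to Ifi27l2a. Adipocyte markers differed in the same direction as Ifi27l2a. Their summed signal over 7 tested markers was 2873 to 6498 in control and 23755 to 33502 in high fat mice, no marker was at 0, and their part in the Ifi27l2a result was not tested.

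The IFIT proteins bind foreign RNA and restrict its translation. Ifit1 had signals of 361.6, 458.9 and 408.4 in control and 622.4, 725.7 and 730.1 in high fat mice. Every high fat mouse was above every control mouse, and the rise was 1.69-fold with an interval of 1.33 to 2.16 (limma adjusted p = 0.0259). The call was kept in 1 of 6 fits with 1 mouse left out (0.0577 to 0.0926 in the others, highest without control replicate 3; it held without high fat replicate 1), while the log2 difference stayed between 0.67 and 0.85. Ifit2 and Ifit3, encoded beside Ifit1 on the same chromosome, were not called. Ifit2 had means of 797 ± 155 and 695 ± 147 (SD, n = 3 each; limma adjusted p = 0.57). Ifit3 had signals of 1936, 2298 and 2346 in control and 1219, 2208 and 1646 in high fat mice, which overlap (0.752-fold, interval 0.547 to 1.03, limma adjusted p = 0.237). The interval of Ifit3 lay wholly below that of Ifit1; the difference between both genes was not tested.

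**Figure D3:**
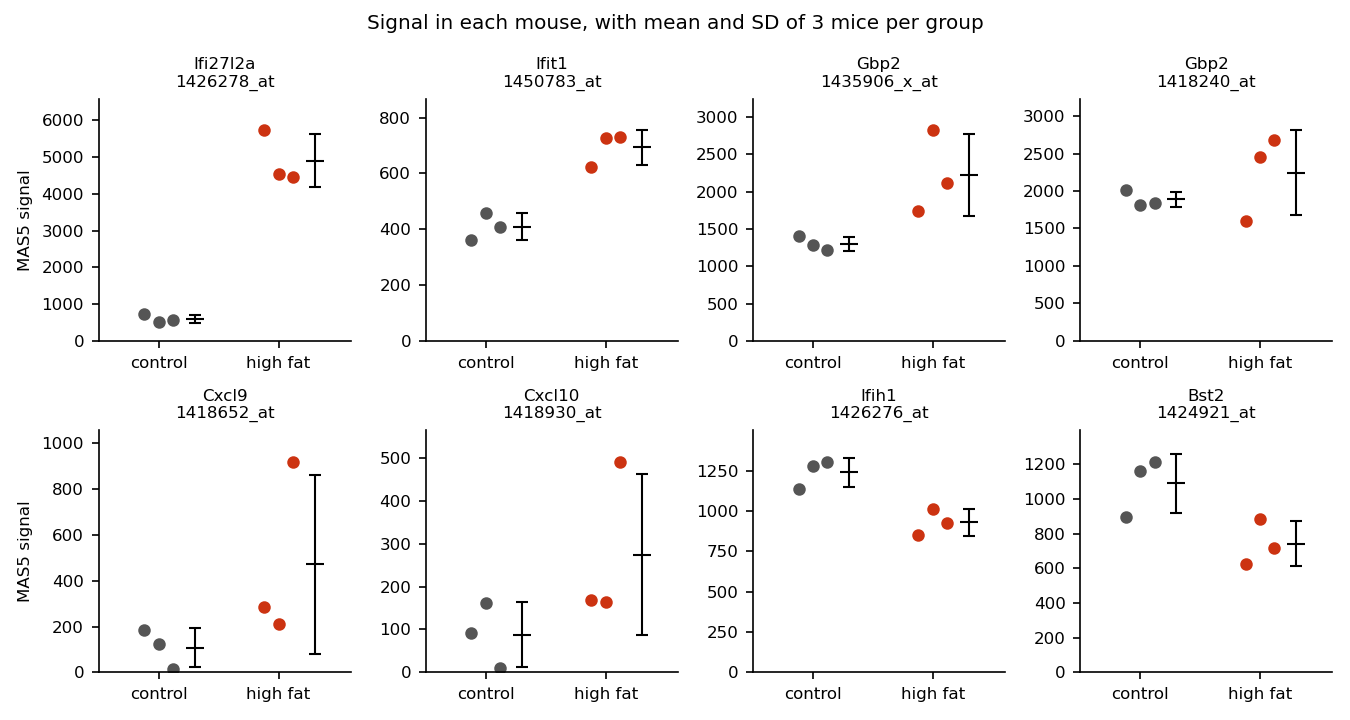
MAS5 signal (linear axis from 0) of each mouse for 8 probe sets, with the mean and SD of 3 mice per group beside the points. Ifi27l2a, Ifit1 and the Gbp2 probe set with the suffix x_at rose, the other Gbp2 probe set overlaps between groups, Cxcl9 and Cxcl10 are widely spread, and Ifih1 and Bst2 lie lower in high fat mice without passing the test.

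Other antiviral effectors of the type I response were not called. Of 18 tested effectors, 2 rose (Ifi27l2a and Ifit1), 0 fell and 16 did not pass, with a median log2 difference of 0.16. The background was 4.56 percent of all tested genes called higher and 2.2 percent called lower. The oligoadenylate synthetases make the second messenger that activates RNase L. Oas1a was at 449.8 ± 29 and 431 ± 51.2 (SD, n = 3 each). Oas2 had signals of 96.39, 56.01 and 148.5 in control and 154.4, 170.5 and 161.2 in high fat mice, without overlap but not called (limma adjusted p = 0.207). The control mean of Oas2, 6.54 on the log2 scale, was near the dim filter at 6.14. The OAS-like Oasl1 and Oasl2 had log2 differences of 0.22 and 0.20 and overlapped between groups. Oasl1 was near the filter as well, with means of 91.7 and 102.1. Mx1 and Mx2, dynamin-like GTPases that trap viral particles, were near the dim filter in both groups, with means of 85.1 and 102 for Mx1 and 85.6 and 100.1 for Mx2. RefSeq lists both as transcribed pseudogenes in its reference strain.

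Usp18, the protease that removes ISG15 from proteins and damps the type I receptor, had signals of 879.8, 783.7 and 649.8 in control and 1217, 1001 and 959.4 in high fat mice. The groups did not overlap, but the 1.38-fold difference (interval 1.07 to 1.76) was not called (limma adjusted p = 0.112). Rsad2, which encodes viperin, an enzyme that makes a chain-terminating nucleotide, was measured by 3 probe sets with log2 differences of -0.25, 0.01 and 0.12. All 3 overlapped between groups, and all 3 were highest among the high fat mice in replicate 1 and lowest in replicate 3. Ifitm3, a membrane protein that blocks viral entry and the brightest member probe set, had means of 15247 ± 1753 and 18630.4 ± 3615 (SD, n = 3 each; limma adjusted p = 0.328). Rtp4, a chaperone of membrane receptors, was at 1237 ± 131 and 1263 ± 162 (SD, n = 3 each) on its tested probe set, and its second probe set was below the dim filter.

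A few effectors had lower signals in the high fat mice, none past the threshold. Bst2, or tetherin, which holds budding virions on the cell surface and is also a marker of plasmacytoid dendritic cells, had signals of 892.5, 1162 and 1212 in control and 624.9, 884.3 and 716.1 in high fat mice. The groups were separated by a narrow gap, and the fold was 0.68 with an interval of 0.517 to 0.896 (limma adjusted p = 0.0934). Ifih1, which encodes the RNA sensor MDA5, had 1139, 1276 and 1304 in control and 849.9, 1013 and 926.8 in high fat mice (0.749-fold, interval 0.616 to 0.912, limma adjusted p = 0.0823). Ifi35, a partner of NMI, gave different answers by probe set. The brightest was at 5929 ± 96.2 and 6069 ± 517 (SD, n = 3 each). The dimmest, which carries the suffix x_at explained with Gbp2 below, had a log2 difference of 0.13. The third had 1288, 1291 and 1481 in control and 927.6, 1113 and 969.3 in high fat mice. The last did not overlap between groups and had a limma adjusted p of 0.0558 over probe sets. The size of these falls depended on array scaling. After median centring, the log2 difference went from -0.56 to -0.28 for Bst2 and from -0.42 to -0.14 for Ifih1. That of the third Ifi35 probe set went from -0.43 to -0.16. Quantile normalization gave -0.56, -0.43 and -0.45 in the same order.

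Xaf1, which encodes a pro-apoptotic antagonist of XIAP, varied more within groups than between them, and its probe sets mirrored each other. The probe set with the higher mean log2 signal had signals of 1418, 142.4 and 1080 in control and 1112, 153.4 and 724.6 in high fat mice. The other had 73.69, 1458 and 763.7 in the same control mice and 45.42, 2295 and 991.7 in the same high fat mice. In replicate 1 of both groups the first was high and the second low, in replicate 2 of both groups the reverse held, and in replicate 3 both were high. The log2 ratio of the first to the second was 4.27, -3.36 and 0.50 in control and 4.61, -3.90 and -0.45 in high fat mice, while their sum stayed between 1158 and 2448. Neither was called (limma adjusted p = 0.869 and 0.967 over probe sets), and the intervals, 0.194 to 3.52 and 0.109 to 10.7 in fold, leave the diet difference of Xaf1 undetermined.

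**Figure D4:**
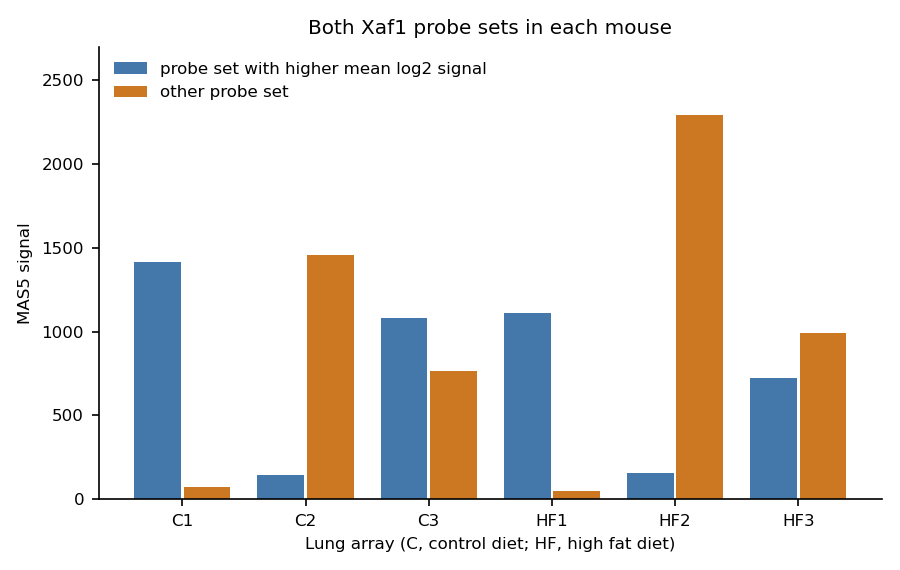
MAS5 signals (linear axis from 0) of both Xaf1 probe sets in each control (C) and high fat (HF) mouse. Where 1 probe set is bright in replicates 1 and 2 the other is dim, in both diet groups, and both are bright in replicate 3.

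Of the 4 transcription factors, 0 were called (background 6.75 percent of all tested genes), with a median log2 difference of 0.17. Irf7, the amplifier of type I interferon production, had signals of 280.8, 325.7 and 337.7 in control and 459.1, 359.4 and 439.2 in high fat mice. The groups did not overlap, and the fold was 1.33 with an interval of 1.01 to 1.75 (limma adjusted p = 0.179). Irf1, a mediator of the interferon-gamma response, was nearly constant in control mice (2944, 2744 and 2819) and spread in high fat mice (2665, 3773 and 4814), with a limma adjusted p of 0.274. Irf9 and Stat2, the DNA-binding and activating partners in the complex that binds the ISRE, had log2 differences of -0.01 and -0.04, with intervals of 0.712 to 1.38 and 0.72 to 1.31 in fold.

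The interferon-gamma induced GTPases attack the vacuoles of intracellular pathogens. Of the 6 genes, 0 were called on their representative probe set (background 6.75 percent of all tested genes). Their median log2 difference was -0.10. Gbp2, a guanylate-binding protein, was discordant. Its dimmer probe set had signals of 1399, 1283 and 1217 in control and 1743, 2817 and 2110 in high fat mice and rose 1.68-fold (interval 1.28 to 2.21, limma adjusted p = 0.0273 over probe sets). Its brighter probe set had 2007, 1810 and 1846 in control and 1605, 2452 and 2674 in high fat mice, which overlap (limma adjusted p = 0.458 over probe sets). The dimmer one carries the suffix x_at, which marks a probe set whose probes can match other transcripts, so it may include signal from related genes. Over probe sets it was called in 2 of 6 fits with 1 mouse left out, those without high fat replicate 1 or 3. In the others it was not called (adjusted p up to 0.0973, without control replicate 3). By the same count over probe sets, Ifit1 was called in 3 of 6 (1 of 6 over genes). Without the variance trend this Gbp2 probe set was not called (limma adjusted p = 0.0627), while that of Ifit1 was.

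Ifi47, an immunity-related GTPase, had signals of 1745, 1485 and 1588 in control and 941.5, 1127 and 1460 in high fat mice (0.722-fold, limma adjusted p = 0.124). All high fat mice were below all control mice. The log2 difference of Ifi47 was -0.47, -0.50 after quantile normalization and -0.20 after median centring. Irgm1, a regulator of the other GTPases of its family, had means of 942 ± 72.6 and 805 ± 224, and Igtp 1087 ± 140.5 and 1151 ± 388 (SD, n = 3 each). Gbp3 was at 696 ± 141 and 606 ± 193, and Iigp1 at 1595 ± 85.8 and 1955 ± 630.2 (SD, n = 3 each). None of these 4 passed the test (limma adjusted p = 0.444 to 0.929). The high fat mice were ordered alike across this class. On their representative probe sets, all 6 GTPases were lowest in high fat replicate 1 and highest in high fat replicate 3, as were 19.2 percent of all tested genes. The called Gbp2 probe set was also lowest in replicate 1 but highest in replicate 2. The SD of log2 signals was larger in high fat than in control mice for 6 of 6, with medians of 0.43 and 0.11. Among all tested genes it was larger in high fat mice for 57.8 percent, with medians of 0.21 and 0.17. The transcription factors shared this, with 4 of 4 larger in high fat mice and medians of 0.31 and 0.15. The counts were 9 of 18 for the type I effectors and 0 of 2 for the chemokines. The order from replicate 1 to 3 was also that of 2 transcription factors, Irf1 and Irf9, 1 effector and 0 chemokines. This order was seen in the data and not tested, and the 6 GTPase genes share the same 3 arrays. The median difference of the GTPase class ran from -0.31 without high fat replicate 3 to 0.15 without high fat replicate 1, the only single omission that turned its sign.

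**Figure D5:**
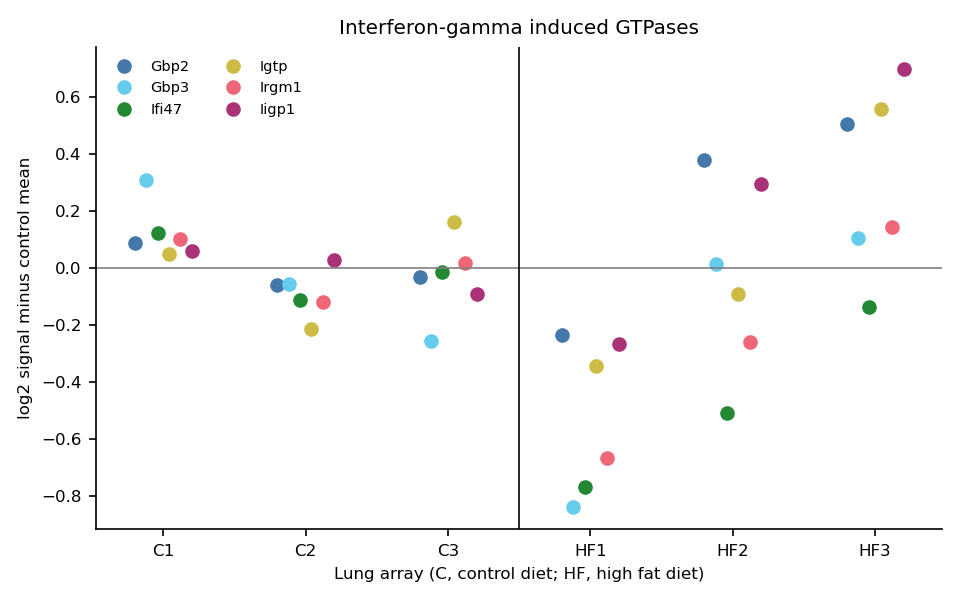
Log2 signal minus the control mean of the 6 interferon-gamma induced GTPases (representative probe sets) on each control (C) and high fat (HF) array. For each gene the control mice lie closer together than the high fat mice, with Gbp3 the most spread among control mice. All 6 genes are lowest in high fat replicate 1 and highest in high fat replicate 3.

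Cxcl9 and Cxcl10, ligands of the receptor CXCR3 on T cells, had the largest differences among the members after Ifi27l2a and the widest errors. Cxcl9 had signals of 185.1, 123.5 and 16.46 in control and 284.8, 209 and 916.8 in high fat mice. Cxcl10 had 91.22, 161.4 and 9.84 in control and 168.5, 163.7 and 490.2 in high fat mice. Neither overlapped between groups, but the gap was narrow, between control replicate 1 and high fat replicate 2 for Cxcl9 and between replicate 2 of both groups for Cxcl10. Control replicate 3 was lowest and high fat replicate 3 highest for both. The log2 differences were 2.39 (interval 0.42 to 4.37, limma adjusted p = 0.131) and 2.18 (interval 0.068 to 4.30, limma adjusted p = 0.183). The control mean of Cxcl10, 5.71 on the log2 scale, was under the dim filter at 6.14 and that of Cxcl9, 6.17, just above it, so neither value is a well measured fold. Adding 32 to each signal before log2 gave 1.82 and 1.45. With 1 mouse left out, the difference of Cxcl9 ran from 1.33 without control replicate 3 to 3.07 without control replicate 1, and that of Cxcl10 from 0.97 without control replicate 3 to 2.99 without control replicate 2. Without high fat replicate 3 they were 1.76 and 1.66. A second Cxcl9 probe set was below the dim filter. The T and NK cell markers, among the sources of interferon-gamma, had summed signals of 4543 to 5270 in control and 2714 to 3576 in high fat mice, which is the direction opposite to the chemokines. Their part in the chemokine result was not tested.

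Genes upstream of the interferon response were measured by lists drawn up from textbook knowledge of the pathway, with earlier results of these data known. Of 9 interferon ligands with a probe set, only Ifna2 passed the dim filter (log2 -0.26, not called). Ifnb1 had signals of 32.28, 51.23 and 24.61 in control and 23.9, 35.72 and 57.72 in high fat mice, and Ifng 56.5, 27.4 and 22.06 and 55.72, 28.27 and 21.39. Every one of these Ifnb1 and Ifng signals lies under the filter, at a signal of 70.3, so no difference in either was detectable here. Of 13 receptor and signalling genes, 0 rose and 2 fell on their representative probe sets, which is how all lists here were counted. The background for this and the following lists is 4.56 percent of all tested genes called higher and 2.2 percent called lower. Jak1, the kinase shared by type I and type II receptors, had 4161, 4652 and 4840 in control and 2304, 2339 and 2781 in high fat mice on its brightest probe set (0.543-fold, limma adjusted p = 0.00795), and was called in 6 of 6 fits with 1 mouse left out. Its other probe sets, with log2 differences of -0.50 and 0.25, were not called. Ptpn6, the phosphatase SHP-1 of blood cells, fell to 0.635 times (limma adjusted p = 0.0477). Its call was kept in 0 of 6 fits with 1 mouse left out (adjusted p up to 0.149, without control replicate 2). Nor was it kept after median centring or with no filter. Over probe sets, dimmer ones of Jak2, another receptor kinase, and Pias1, an inhibitor of the pathway, were called as well, at 0.624-fold and 1.67-fold (limma adjusted p = 0.018 and 0.0323). They were called in 3 and 2 of 6 fits with 1 mouse left out (up to 0.074 and 0.101, both without control replicate 3), and that of Jak2 not after median centring. Their brightest probe sets were not called (log2 -0.17 and -0.26).

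Of 18 genes of nucleic acid sensing and interferon induction, 0 rose and 1 fell. This was Eif2ak2, the RNA-activated kinase PKR and itself interferon-induced, with 329.3, 433.6 and 374.7 in control and 149.6, 244 and 146.8 in high fat mice (0.464-fold, limma adjusted p = 0.0353). It was called in 1 of 6 fits with 1 mouse left out (adjusted p up to 0.123, without control replicate 2) and not after quantile normalization. Its other probe sets were not called (log2 -0.56 and -0.11). A dimmer probe set of Trim25, a ligase that activates RIG-I, was called higher over probe sets (1.35-fold, limma adjusted p = 0.0485). It was called in 1 of 6 fits with 1 mouse left out (up to 0.148, without control replicate 3). After quantile normalization, with no filter, without the variance trend or with replicate blocks, that Trim25 probe set was not called. Its brightest was not called (log2 0.33). Of 42 further interferon-induced genes outside the set, 0 rose and 3 fell, with a median log2 difference of -0.19. Lgals9, the lectin galectin-9, fell to 0.512 times (limma adjusted p = 0.0141; called in 5 of 6 fits with 1 mouse left out, 0.0596 without control replicate 3). Slfn1, a Schlafen gene of T cells, fell to 0.328 times and the nuclear body gene Sp100 to 0.591 times (limma adjusted p = 0.0245 and 0.0285; called in 2 and 1 of 6 such fits, both highest without control replicate 2, at 0.0932 and 0.106). Sp100 was not called after median centring either. A second Sp100 probe set had a log2 difference of 0.32. Over probe sets, 2 dimmer ones of Slfn5, another Schlafen gene, were called lower (0.413-fold and 0.407-fold, limma adjusted p = 0.0195 and 0.024). They were called in 4 and 2 of 6 fits with 1 mouse left out (up to 0.0792 without control replicate 2 and 0.103 without control replicate 3). The latter was not called after quantile normalization, with no filter or with replicate blocks. The brightest was not called (log2 -0.47). The summed signal of T and NK cell markers is given above, and that of B lineage markers was 7803 to 39850 in control and 4307 to 9083 in high fat mice. Their part in these falls was not tested.

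The last list held MHC class I and immunoproteasome genes, which interferon-gamma raises in many cell types. Of 11 tested, 1 rose and 0 fell. Tapbp, or tapasin, which loads peptides onto class I molecules, had 5196, 5346 and 5429 in control and 6941, 8858 and 8246 in high fat mice (1.5-fold, limma adjusted p = 0.0295). It was called in 1 of 6 fits with 1 mouse left out (up to 0.1003, without control replicate 3), and its second probe set was not called (log2 -0.13). The median of the list was 0.12.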

How the data were processed

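Total RNA of 6 lungs was extracted with a Qiagen kit and labelled with biotin, per the labels' protocols. The deposited values are intensity values that the authors made with MAS5, per the submitters' processing notes; no version or setting of it is stated there. MAS5 subtracts mismatch signal, so dim values are noisy. In the values, every array's mean with 2 percent trimmed off each end was 500, which removes differences in total signal. Before log2, any signal under 1 was raised to 1. Probe sets with a mean log2 signal at or above the 40th percentile (6.14, a signal of 70.3) were tested, 27022 in all, with limma 3.58.1 in R 4.3.3 (lmFit, eBayes with trend, two-sided, 4 residual degrees of freedom, Benjamini-Hochberg over all probe sets or over genes). Control probe sets of the array were left out. Symbols came from the platform annotation, and 0 member symbols changed when updated through RefSeq. The fit was checked on simulated data with independent noise, which holds no effect shared by the probe sets of an array. The members and lists were chosen with earlier results of these data known. Every member is named, and of other pathway lists the genes and probe sets called. Ifi27, Ifi27l2b, Ifna2, Ifnb1 and Ifng are named in addition, the first 2 after their values were seen. Ifi27l1 is named as not measured. Nothing in the labels states that replicates are separate animals, so p-values measure the spread between these samples, which may be technical. Alternatives were quantile normalization, median centring, adding 32 before log2, no filter or one at the 60th percentile, eBayes without trend or robust, array weights, blocking on replicate number, the mean or the smallest-p probe set per gene, and each replicate left out; leaving out replicate 1 of both groups was added after seeing the data. Scan and labelling batches are not given, and a batch that follows the groups could not be told apart from diet.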

Additional observations from a re-analysis of the deposited data

How the results depend on the processing

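Of the 30 member genes, 17 kept the sign of their difference under every alternative run and 13 did not; Ifi27l2a was called in all 18. Median centring gave 7 probe sets and 6 genes called higher and a median over member probe sets of 0.39 (0.12 in the main fit). The median over all tested probe sets moved from -0.058 to 0.22. It turned Ifit2 to 0.074, Oas1a to 0.21, Irf9 to 0.26, Stat2 to 0.23, Gbp3 to 0.036, Irgm1 to 0.015 and Xaf1 to 0.0014. Quantile normalization turned Oas1a to 0.018, Stat2 to 0.12, Ifi35 to -0.071 and Rtp4 to -0.00078, and array weights turned Irf9 to 0.025. Averaging a gene's probe sets turned Stat2 to 0.0036, Rsad2 to -0.042, Ifi35 to -0.090 and Rtp4 to -0.014; taking the probe set with the smallest p turned Stat2 to 0.052, Rsad2 to -0.25 and Ifi35 to -0.43. A variance without trend left 1 gene called higher, and a filter at the 60th percentile gave 1 probe set called lower, of Ifi35. Apart from median centring, which shifts all genes up, the cause was not tested.

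With the replicate number as a block, 1 member probe set was called lower, that of Bst2 (limma adjusted p = 0.0448). Same-numbered deviations correlated at 0.167, 0.108 and -0.0413, and differently numbered ones at -0.213 to 0.127. With 3 arrays per group these values cannot decide whether the numbers mark a pairing. The Xaf1 log2 ratio ranked the replicates alike in both groups, and the block moved the limma adjusted p of Xaf1 from 0.883 to 0.362. Apart from Bst2, no member gene or probe set changed its call under the block. With 1 mouse left out, or replicate 1 of both groups (added after seeing the data), probe sets called higher ranged from 1 to 4 and lower from 0 to 1, genes called higher from 1 to 2, and the probe set median from 0.071 to 0.24. In these fits the log2 difference ranged from -0.16 to 0.024 for Oas1a, -0.025 to 0.60 for Oasl1, -0.14 to 0.46 for Oasl2, -0.18 to 0.31 for Irf9, -0.15 to 0.090 for Stat2, -0.47 to 0.33 for Rsad2, -0.035 to 0.086 for Ifi35, -0.41 to 0.22 for Gbp3, -0.22 to 0.26 for Igtp, -0.075 to 0.15 for Rtp4 and -1.31 to 1.80 for Xaf1. The Xaf1 range joins both probe sets, since the representative one switched between fits; with 1 mouse left out, the usual one ran from -1.31 to 0.58 and the other from -1.17 to 1.80.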
